A study of Mus musculus with 5 samples.

Results

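The 10 genes described here encode receptors through which hunger and satiety signals act on neurons, together with 1 of the peptides themselves. They were taken by name from the 22532 genes of the deposited tables: Ghsr, Lepr, Glp1r, Mc4r, Npy, Npy1r, Npy2r, Npy5r, Hcrtr1 and Hcrtr2. All 10 were present by symbol, and all 10 gene identifiers were found in the GENCODE vM39 annotation of GRCm39. The data came from single-nucleus RNA sequencing of the mouse central amygdala (CeA), a region of mostly inhibitory neurons that takes part in feeding and defensive behavior. There were 5 libraries, each made from the pooled CeA tissue of 1 male and 1 female mouse. Fed replicates 1 and 2 were naive C57BL6 mice aged 8 weeks with food at will. Fed replicate 3 came from Htr2a-Cre mice aged 12 weeks that carried AAV-DIO-mCherry, a virus whose red fluorescent reporter is switched on by Cre in cells that use the promoter of the serotonin receptor gene Htr2a. Fasted replicates 1 and 2 were C57BL6 mice aged 8 weeks without food for 20 and 21 h. The comparison of feeding states therefore had 3 fed and 2 fasted libraries of 2 pooled mice each. Its p-values without a batch term rest on the spread between these libraries, in part shared over genes. Those of fits with a preparation batch are described further on.

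Ghrelin, released by the empty stomach, acts through the receptor encoded by Ghsr. Leptin from fat acts through Lepr, a cytokine receptor, and the gut and brainstem peptide GLP-1 acts through Glp1r, and both reduce eating. Mc4r encodes the melanocortin receptor at which the POMC product alpha-MSH reduces and AgRP increases food intake. Neuropeptide Y, encoded by Npy, is a strong stimulant of feeding; Npy1r and Npy5r encode its postsynaptic receptors, and Npy2r encodes a receptor that often sits on axon terminals and limits transmitter release. Hcrtr1 and Hcrtr2 encode the receptors for the hypothalamic orexins (hypocretins), which promote wakefulness and food seeking. Except for Lepr and the peptide gene Npy, all of these genes encode G protein-coupled receptors.

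Nuclei with 500 to 8000 detected genes and under 0.8% mitochondrial UMIs (unique molecular identifiers, 1 per captured RNA molecule) were kept, which left 7161 of 23839 barcodes, between 1130 and 1734 per library. The median UMI count per nucleus ranged from 6608 to 16367. The median mitochondrial share was higher in both fasted libraries (0.317 and 0.237%) than in the 3 fed ones (0.0529 to 0.136%). The libraries shared 3 cell barcodes among the kept nuclei. Classes were set by raw UMIs of marker genes: 4686 nuclei were inhibitory (Gad1 and Gad2), 710 glial and 64 excitatory, and 1701 were left without a class: 1209 of these passed neither the Gad nor a glial rule, 385 passed the Gad and a glial rule, and 107 passed 2 glial rules. Inhibitory nuclei were divided by the first gate they passed, in a fixed order: interneuron (Lhx6 or Nkx2-1), Pde1c, Foxp2, Rarb, Vdr, Dlk1, Dnah5, Tac1, Sst, Calcrl, Prkcd, and Tafa1 with Il1rapl2. The Pde1c, Foxp2 and Rarb gates mark cells of regions next to the CeA (the posterior limb of the anterior commissure, the intercalated cells and the amygdalostriatal area), the Lhx6 and Nkx2-1 gate marks interneurons of the same surroundings, and the others mark CeA groups; 1790 inhibitory nuclei passed no gate and 1013 passed 2 or more. None of the 10 genes is a gate gene. Vdr stood at 384 CPM (UMIs of a gene per 1000000 UMIs of the class) in Vdr-gated nuclei and at no more than 5.94 CPM in any other class. Not every gate gene was highest in its own class. Il1rapl2 stood at 1458 CPM in the interneuron and at 1054 CPM in the Tafa1/Il1rapl2 class. Calcrl stood at 327 CPM in oligodendrocyte precursors and at 265 CPM in the Calcrl class. Excitatory nuclei had Tafa1 at 2294 CPM and Il1rapl2 at 1288 CPM, against 1108 and 1054 CPM in the Tafa1/Il1rapl2 class. Slc17a7, a marker gene of excitatory nuclei, stood at 15.9 CPM in the Tafa1/Il1rapl2 class and at no more than 3.09 CPM in the other inhibitory classes.

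The 10 genes fell into 4 patterns over these classes. Glp1r, Npy1r, Npy5r, Lepr and Mc4r all had their highest pooled neuronal level in the small Vdr-gated class. Npy was concentrated in few nuclei, most of them positive for Sst and Nos1. Hcrtr2 was found in most neuronal classes at levels that differed between them, and Npy2r was spread more evenly. Ghsr was at the limit of detection and Hcrtr1 was low. Levels below are in CPM of the class, pooled over the libraries or given for each library, and they are compared within a gene, not between genes. For each gene the 13 neuronal classes were ordered by pooled level; of the 12 pairs of neighbours in that order, the ranges over the 5 libraries overlapped in 11 for Lepr, Mc4r and Npy1r and in 12 for each of the others. The neighbours that did not overlap were the first and the second class for Mc4r and Npy1r, and the second and the third for Lepr.

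**Figure D1:**
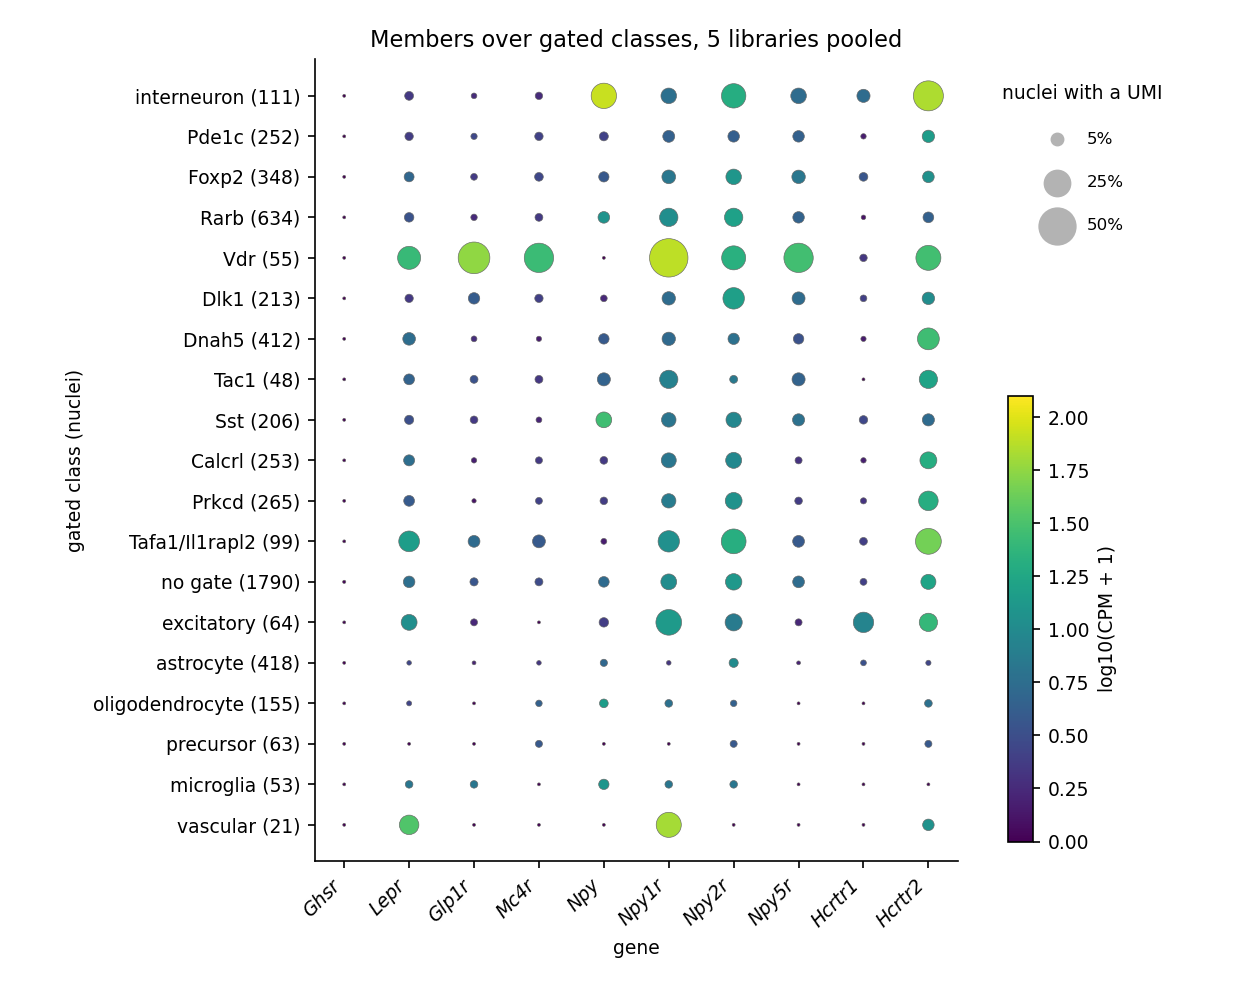
Each dot is 1 gene (horizontal axis) in 1 class (vertical axis, with its number of nuclei, all 5 libraries pooled). Colour gives log10(CPM + 1) and dot area the percentage of nuclei with at least 1 UMI. Among neuronal classes the row of the Vdr gate stands out for Lepr, Glp1r, Mc4r, Npy1r and Npy5r, the interneuron row for Npy and Hcrtr2, and the column of Ghsr is empty but for 1 UMI.

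Among the members with a fitted fold change, the 3 largest in Vdr-gated nuclei were those of Glp1r, Npy1r and Npy5r. Mc4r had too few UMIs for a fit, with library means of 29.4 CPM in and 1.46 CPM outside the gate. Npy1r and Npy5r lie head to head on chromosome 8 (GRCm39), with their starts 8.15 kb apart. Npy1r is on the plus strand from 67149364 to 67159731 and Npy5r on the minus strand from 67132549 to 67141218. Glp1r lies on the plus strand of chromosome 17 from 31120525 to 31159765. The 250 bases before the RefSeq start of these 3 genes are printed (RefSeq, build GRCm38.p6, an older build than that of the data, so their coordinates are not those above) because these 3 receptors, from 2 loci, were highest in the same class. The windows are chr17:30901617-30901866 (plus strand), chr8:66697172-66697421 (plus strand) and chr8:66688095-66688344 (minus strand), and capitals mark matches to the motifs searched:
Glp1r: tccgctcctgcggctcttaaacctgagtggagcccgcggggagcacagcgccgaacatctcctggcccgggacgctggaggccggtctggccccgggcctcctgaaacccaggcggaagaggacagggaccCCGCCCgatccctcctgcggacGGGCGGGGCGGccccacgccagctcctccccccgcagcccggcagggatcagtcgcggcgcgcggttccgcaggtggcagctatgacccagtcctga
Npy1r: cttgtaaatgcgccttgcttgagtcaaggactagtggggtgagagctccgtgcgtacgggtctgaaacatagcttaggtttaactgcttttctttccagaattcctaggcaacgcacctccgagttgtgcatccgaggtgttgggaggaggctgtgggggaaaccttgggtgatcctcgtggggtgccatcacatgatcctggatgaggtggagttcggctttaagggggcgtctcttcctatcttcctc
Npy5r: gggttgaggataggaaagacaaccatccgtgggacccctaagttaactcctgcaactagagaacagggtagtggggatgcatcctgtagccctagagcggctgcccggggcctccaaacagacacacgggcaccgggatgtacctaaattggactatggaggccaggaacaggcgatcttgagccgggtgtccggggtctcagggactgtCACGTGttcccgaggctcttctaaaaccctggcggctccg

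The windows were searched on both strands for AGGTCA (a half-site bound by nuclear receptors such as that encoded by Vdr), TGACG (the core of the cAMP response element), GGGCGG (bound by Sp1) and CACGTG (the E-box); in the windows printed no match shared bases with a match to another motif, while the plus-strand copies of GGGCGG before Glp1r overlap each other. The Glp1r window held GGGCGG 3 times, 92 bases before the start at the nearest, the Npy5r window held CACGTG once, 40 bases before the start, and the Npy1r window held none of the 4. In 32851 promoter windows of the same length, AGGTCA was found in 14.0%, TGACG in 17.8%, GGGCGG in 32.7% and CACGTG in 6.02%. These are matches of letters only. Of the 10 genes, 9 had their windows searched, and Mc4r was left out.

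Vdr-gated nuclei (55 in all: 12, 6 and 13 in fed replicates 1 to 3, 6 and 18 in fasted replicates 1 and 2) carried 5 of the receptors at levels well above those of the other inhibitory nuclei. Npy1r, the postsynaptic NPY receptor, stood at 56.9, 94.6 and 78.7 CPM in the fed and at 61.3 and 79.0 CPM in the fasted libraries. These levels came from 8, 9, 16, 3 and 31 UMIs. The other 4631 inhibitory nuclei had 6.40 to 8.16 CPM, so that the ranges did not overlap. Glp1r stood at 56.9, 31.5 and 123 CPM (fed) and at 20.4 and 30.6 CPM (fasted), against 1.32 to 2.19 CPM outside the gate. Its values were higher in every library than in any library outside the gate, and fed replicate 3 was the highest of the 5. Mc4r stood at 14.2, 42.0 and 24.6 CPM (fed) and at 40.9 and 25.5 CPM (fasted), against 1.13 to 1.76 CPM outside the gate. Inside the gate this was 2, 4, 5, 2 and 10 UMIs of Mc4r. Npy5r, the other postsynaptic NPY receptor, stood at 42.7, 21.0 and 9.84 CPM (fed) and at 20.4 and 35.7 CPM (fasted), against 2.46 to 4.77 CPM outside the gate. Inside the gate this was 6, 2, 2, 1 and 14 UMIs of Npy5r. Lepr, the leptin receptor, stood at 14.2, 0 and 29.5 CPM (fed) and at 40.9 and 30.6 CPM (fasted), against 2.40 to 4.64 CPM outside the gate; the 6 nuclei of fed replicate 2 had no Lepr UMI, so here the ranges overlapped. The mean of the 5 libraries for Lepr, 23.0 CPM, was below that of the Tafa1/Il1rapl2 class described further on, 30.8 CPM, and the counting intervals of the pooled levels overlapped (15.7 to 37.8 and 8.98 to 19.5 CPM). The ranges of Npy2r (10.5 to 34.4 against 6.66 to 13.4 CPM) and of Hcrtr2 (14.2 to 84.1 against 12.6 to 18.2 CPM) overlapped as well. In this class 3 UMIs equal 7.65 to 61.3 CPM, depending on the library, so several of the values above rest on fewer than 3 UMIs.

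The test of these differences (edgeR's quasi-likelihood test on UMIs summed per class and library, with the library as a block and Benjamini-Hochberg adjustment over all genes tested) compared each class with the mean of the other neuronal classes. The planned set of classes, those with at least 10 nuclei in every library, left out the Vdr, Tac1 and Tafa1/Il1rapl2 gates, so a minimum of 4 nuclei, which gave 13 classes and 9422 genes, was added after the data were seen. In it, 11.5% of all genes were called in the Vdr class in either direction (adjusted p under 0.05). Npy1r, which passed the filter on low counts in both sets of classes, was higher by 3.59 ± 0.32 (log2 fold change ± SE, adjusted p = 2.70e-14), and stayed called when any library was left out (adjusted p up to 1.03e-08). Glp1r, Npy5r and Lepr did not pass that filter in the planned set and passed it only once these classes, in which they are high, were added. Their fold changes are therefore given as a description, with no p: 5.26 ± 0.46 for Glp1r, a 38.4-fold difference, 3.00 ± 0.45 for Npy5r and 2.88 ± 0.47 for Lepr. Npy2r (1.05 ± 0.53, adjusted p = 0.237) and Hcrtr2 (0.92 ± 0.63, adjusted p = 0.425) missed the threshold. Npy had no UMI in the class. Mc4r, Hcrtr1 and Ghsr had too few UMIs over the classes to be tested, so the Mc4r values above are a description.

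**Figure D2:**
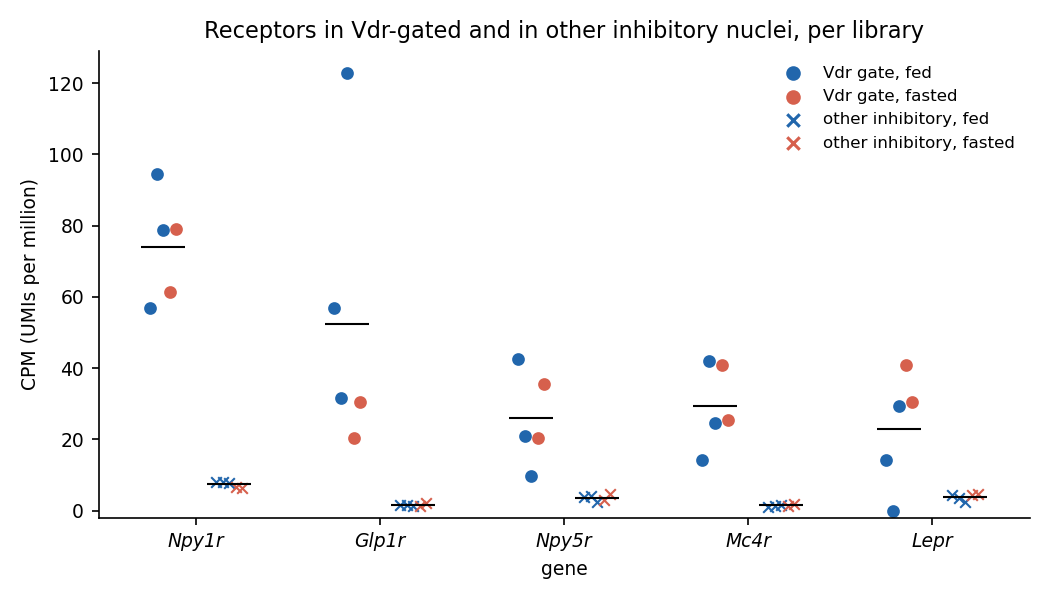
CPM (vertical axis) of 5 receptors (horizontal axis) in each library, with circles for Vdr-gated and crosses for all other inhibitory nuclei, blue for fed and red for fasted libraries, and bars for the mean of 5 libraries. The circles lie above the crosses for Npy1r, Glp1r, Npy5r and Mc4r in every library; 1 Lepr circle, that of fed replicate 2, is at 0.

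Single nuclei of the class often held several of the 5 receptors, a set that was chosen after the levels were seen. At least 2 of the 5 were detected in 33 of 55 Vdr-gated nuclei (60.0%), in 114 of 4631 other inhibitory nuclei (2.46%) and in 1 of 710 glial nuclei (0.141%), at median depths of 14909, 13216 and 3658 UMIs. By library the share was 41.7, 66.7 and 53.8% (fed) and 33.3 and 83.3% (fasted) in Vdr-gated nuclei and 1.05 to 4.53% in the other inhibitory nuclei. A Npy1r UMI was found in 56.4% of Vdr-gated nuclei (exact 95% binomial interval 42.3 to 69.7%), 9.50% of all inhibitory and 1.55% of glial nuclei. After every nucleus was thinned to 4000 UMIs, the shares were 25.5%, 3.52% and 0.336%; nuclei with fewer UMIs were left out, which kept all 55 Vdr-gated and 4574 of 4686 inhibitory but only 298 of 710 glial nuclei. Of the 31 Vdr-gated nuclei with Npy1r, 13 held Npy5r and 14 held Glp1r. Of the 24 without it, 20.8% held Npy5r and 29.2% held Glp1r. Not every pair went this way. Glp1r was in 27.8% of Vdr-gated nuclei with and 43.2% without Mc4r, and Npy1r in 54.5% with and 56.8% without Lepr. Whether the 5 receptors met in 1 nucleus more often than their single shares would give was not tested. The depth of a nucleus enters all of these shares, and its part was not tested.

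The levels can also be set out by the number of Vdr UMIs in a nucleus, as a description with no test. In the 39 inhibitory nuclei with exactly 1 Vdr UMI, which the gate leaves out, Npy1r stood at 15.2 CPM (9 UMIs), Lepr at 10.1 CPM (6 UMIs), Npy5r at 5.05 CPM (3 UMIs) and Mc4r at 3.37 CPM (2 UMIs), and no Glp1r UMI was found. In the 59 inhibitory nuclei with 2 or more, some of which an earlier gate had taken, the levels were 67.3, 29.5, 29.5, 21.2 and, for Glp1r, 46.1 CPM. In the 4588 nuclei without Vdr they were 7.15, 3.63, 3.66, 1.53 and 1.75 CPM. With so few UMIs the nuclei with 1 Vdr UMI cannot be placed firmly between the other groups; their median depth was 13101 UMIs, against 13211 UMIs in nuclei without Vdr.

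Another CeA gate with few nuclei was that of Tafa1 with Il1rapl2 (99 in all, 4 in fasted replicate 1). It is the last in order, and the 1790 ungated nuclei also held Il1rapl2 (274 CPM) and Tafa1 (159 CPM). The study describes its Il1rapl2 cluster as the largest of the medial CeA, so the gated set does not give the size of that group. Nuclei of this gate had Lepr at 16.3, 9.92 and 12.5 CPM (fed) and at 105 and 10.6 CPM (fasted), the value of 105 CPM coming from 4 nuclei. The fold change of Lepr there against the mean of the other classes was 2.08 ± 0.40, and 1.79 without fasted replicate 1, again a description, since Lepr passed the filter only with these classes. Hcrtr2 was higher by 1.51 ± 0.38 (edgeR, adjusted p = 0.00278, where 14.8% of all genes were called), but not without fed replicate 3 (adjusted p = 0.0873). The class also held RNA of the excitatory marker Slc17a7 (15.9 CPM). Excitatory nuclei had Lepr at 9.91 CPM and Hcrtr2 at 24.1 CPM, and the part of excitatory RNA in these differences was not tested. In the Tac1 class, where 7.38% of genes were called, none of the 7 members was called by edgeR and none had an unadjusted p under 0.05; the other tools were run on the planned 10 classes, which do not hold this one.

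In the planned comparison, 10 classes and 9765 genes were tested, and 4 members passed the filter: Npy, Npy1r, Npy2r and Hcrtr2. They were called in 12 of 40 tests, 9 of them higher in the class named. DESeq2 called 11 of 40 and edgeR's likelihood ratio test 15, and their shares over all genes are not given. The shares that follow are those of the quasi-likelihood test. The share of all genes called in either direction was 34.0% for the interneuron gate, 18.1% for Pde1c, 20.8% for Foxp2, 19.1% for Rarb, 9.47% for Dlk1, 23.2% for Dnah5, 9.53% for Sst, 18.5% for Calcrl, 31.5% for Prkcd and 18.3% for nuclei without a gate. Against these shares, 3 of 4 members were called in the interneuron class, all 4 in the Rarb class, 2 in the Dnah5 class, 1 each in the Pde1c, Sst and ungated classes, and none in the Foxp2, Dlk1, Calcrl and Prkcd classes, where none had an unadjusted p under 0.05 either.

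Npy, the peptide gene, was higher in the interneuron class by 4.81 ± 0.43 (edgeR, adjusted p = 2.21e-13) and in the Sst class by 2.93 ± 0.53 (adjusted p = 5.30e-05). In the interneuron class it stood at 47.8, 14.9 and 46.6 CPM (fed) and at 580 and 99.5 CPM (fasted); in fasted replicate 1, 52 of its 53 UMIs came from 1 of 11 nuclei. In the Sst class it stood at 0, 16.4 and 47.4 CPM (fed) and at 114 and 9.89 CPM (fasted), with 29 of 30 UMIs of fed replicate 3 in 1 nucleus. Both differences stayed called without any 1 library, up to adjusted p = 1.02e-07 and 0.00423. The interneuron level lay almost wholly in nuclei that also passed another gate: it was 82.5 CPM in the class and 3.49 CPM (5 UMIs) in the 62 nuclei that passed that gate alone, a set too small to be tested, while Sst nuclei that passed 1 gate alone kept 30.3 CPM (88 UMIs). In the Rarb class Npy was higher by 1.61 ± 0.48 (adjusted p = 0.0116), which rested on fed replicate 2: there 74 UMIs were counted, 35 of them in 1 nucleus, and without that library the difference was 0.14 (adjusted p = 0.899). No Npy UMI was found in the 55 Vdr-gated nuclei, for which 3 counts would be 5.45% of nuclei and a level of 3.41 CPM (the limit that a count of 0 allows; like the intervals, it covers counting error only).

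The Npy UMIs sat in few nuclei. Of 750 in all kept nuclei, 438 (58.4%) came from 32 nuclei with 5 or more, which are 0.447% of the total; 204 nuclei had exactly 1. Of the 32, 30 had at least 2 Sst UMIs, 25 at least 2 UMIs of Nos1, the gene of neuronal nitric oxide synthase, and 24 had both, against 6.49% and 5.46% of the other nuclei for Sst and Nos1. Neurons that hold somatostatin, neuropeptide Y and nitric oxide synthase together are a known interneuron type of the cortex and amygdala. By gate, 12 of the 32 were interneurons, 5 passed the Sst and 4 the Rarb gate, 2 inhibitory nuclei passed no gate, 8 belonged to none of the inhibitory, glial and excitatory classes, and 1 was glial. They came from every library (1, 7 and 7 fed, 6 and 11 fasted).

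Npy UMIs were also counted outside these nuclei, at levels that differed between libraries. Inhibitory nuclei with fewer than 5 Npy UMIs had 1.81, 1.42 and 2.55 CPM (fed) and 9.09 and 3.44 CPM (fasted). Glia had 0, 1.23 and 4.01 CPM (fed) and 16.6 and 7.49 CPM (fasted), on 0, 1, 2, 7 and 7 UMIs; without 1 nucleus that held 5 of them, fasted replicate 1 stood at 5.08 CPM. The 16678 barcodes that failed the filter had 16.4, 14.9 and 5.50 CPM (fed) and 50.3 and 26.1 CPM (fasted); without the 20 of them that held 5 or more Npy UMIs, they had 15.5, 13.7 and 3.64 CPM (fed) and 25.6 and 20.9 CPM (fasted). In all 3 sets both fasted libraries were above every fed one, with and without the nuclei or barcodes of 5 or more Npy UMIs. Npy was the only 1 of the 10 genes with a pooled level above that of the kept nuclei in the failed barcodes (30.9 against 8.31 CPM); Ghsr, with no UMI there, and the other 8 were lower.

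**Figure D3:**
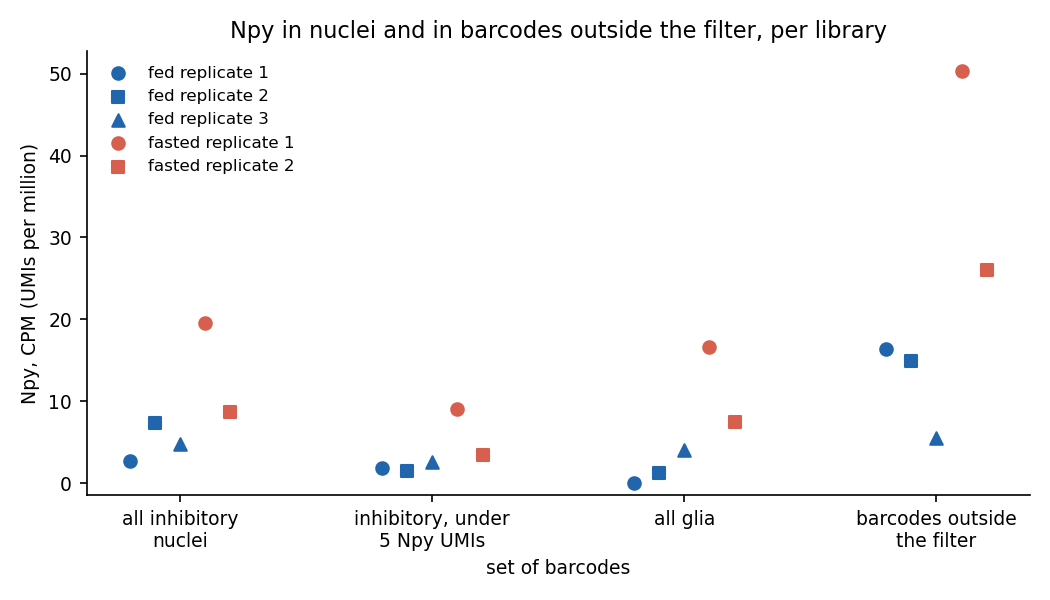
Npy in CPM (vertical axis) in each library (blue fed, red fasted, symbols for replicates) for 4 sets of barcodes (horizontal axis): all inhibitory nuclei, inhibitory nuclei with fewer than 5 Npy UMIs, glia, and barcodes outside the filter on genes and mitochondrial share. Fasted replicate 1 is the highest point in each set, at 19.6, 9.09, 16.6 and 50.3 CPM.

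Npy2r, the presynaptic NPY receptor, was found in 10.5% of inhibitory nuclei and varied less over the classes than the receptors above. Its pooled level ran from 3.21 CPM in the Pde1c class to 20.4 CPM in the Vdr class, with 19.8 CPM in the Tafa1/Il1rapl2 and 19.0 CPM in the interneuron class. It was lower in the Pde1c class by 1.64 on the log2 scale (edgeR, SE 0.44, adjusted p = 0.00481) and lower in the Dnah5 class by 1.09 (SE 0.33, adjusted p = 0.0118). It was higher in the interneuron class by 1.07 ± 0.34 (adjusted p = 0.0107) and in the Rarb class by 0.74 ± 0.22 (adjusted p = 0.0128). None of these calls stood in every refit without 1 library: the Pde1c and Rarb calls were lost without fasted replicate 2 (adjusted p = 0.143 and 0.113), the interneuron call without fed replicate 2 (0.271), and the Dnah5 call without fed replicate 2 (0.0732) or fed replicate 3 (0.116). Stricter classes also cost calls: the Pde1c call with all gates doubled (adjusted p = 0.0599), the Dnah5 call in nuclei that passed exactly 1 gate (0.0996), and the interneuron call without the nuclei of 5 or more Npy UMIs (0.0702). Npy1r was higher in the Rarb class by 0.88 ± 0.27 (adjusted p = 0.0135) and in ungated nuclei by 0.78 ± 0.23 (adjusted p = 0.00925), both lost without fed replicate 2 (adjusted p = 0.140 and 0.104), and the first also with DESeq2 (0.0562). Once the Vdr class was among those averaged, these Npy1r differences were 0.47 ± 0.24 (adjusted p = 0.181) and 0.36 ± 0.20 (adjusted p = 0.363).

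Hcrtr2, the orexin receptor that binds both orexins, had its highest pooled level in the interneuron class at 68.7 CPM (27.3, 123 and 44.2 CPM fed, 43.8 and 52.8 CPM fasted). It was higher there than in the mean of the other classes by 2.57 ± 0.33 (edgeR, adjusted p = 8.24e-09), at most 8.33e-06 without any 1 library. The Dnah5 class had 27.3 CPM of Hcrtr2, below the Tafa1/Il1rapl2 (43.9 CPM) and Vdr (28.4 CPM) classes (26.7, 15.4 and 37.7 fed, 21.4 and 27.8 fasted) and was higher by 1.10 ± 0.30 (adjusted p = 0.00484), although not without fed replicate 3 (adjusted p = 0.0586) and not by DESeq2 (adjusted p = 0.0639; over all alternatives 5.63e-05 to 0.0639). The Rarb class had 3.43 CPM (5.05, 3.72 and 3.00 fed, 0 and 4.34 fasted) and was lower by 2.15 on the log2 scale (SE 0.44, adjusted p = 1.85e-04), a call that held in all 14 alternatives. The Prkcd and Calcrl classes both had 19.3 CPM (19.5 and 3.20 CPM in nuclei that passed that gate alone, the latter on 7 UMIs) and missed the threshold (adjusted p = 0.339 and 0.382). The Sst class, at 4.36 CPM, missed it in the planned set (-1.82 ± 0.64, adjusted p = 0.0623) and passed with the 13 classes (-1.99 ± 0.61, adjusted p = 0.0269).

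Hcrtr2 was also uneven within classes. In the inhibitory nuclei, 59 nuclei with 5 or more Hcrtr2 UMIs held 42.8% of its 1185 UMIs. Counted the same way, the share was 59.4% for Npy, 16.5% for Glp1r and 15.6% for Npy2r. It was 3.48% for Lepr, 2.62% for Npy1r and 1.75% for Npy5r. The total UMIs of these genes differed, which enters the shares. In the interneuron class a UMI was found in 34.2% of 111 nuclei and, after thinning to 4000 UMIs, in 15.7% of the 108 nuclei that were deep enough (exact 95% interval 9.44 to 24.0%). In the Rarb class the shares were 4.10% and, in 633 of 634 nuclei, 0.632%. In glia they were 1.13% of 710 and 1.34% of the 298 nuclei that were deep enough, so the values before and after thinning are from different nuclei.

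**Figure D4:**
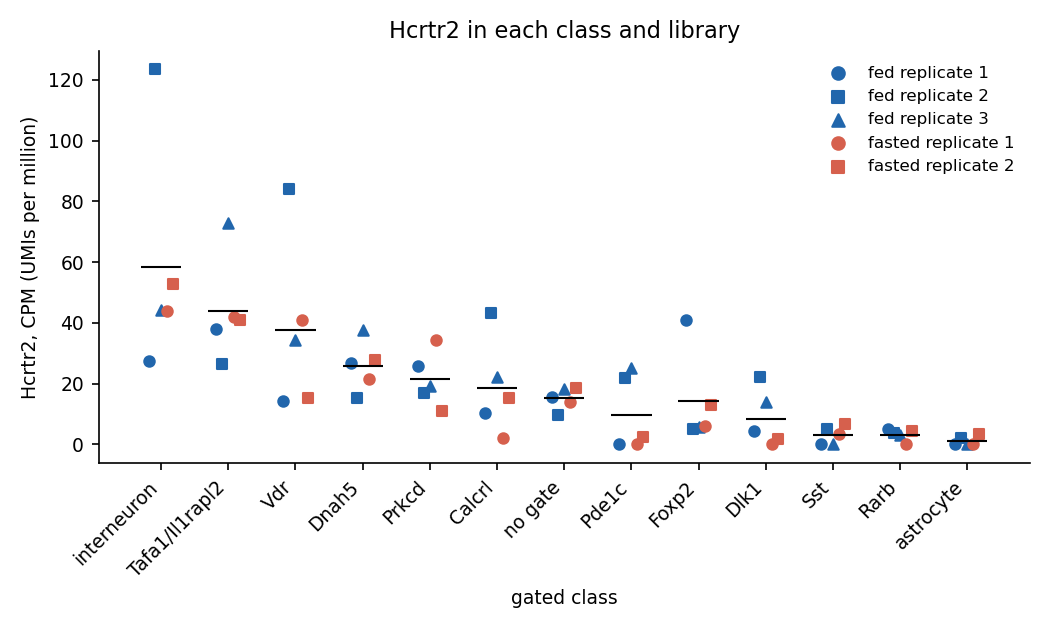
Hcrtr2 in CPM (vertical axis) in each library (blue fed, red fasted, symbols for replicates) for 12 neuronal classes, all but the Tac1 gate, and for astrocytes (horizontal axis, in order of the pooled level); bars are means of 5 libraries. The interneuron and Tafa1/Il1rapl2 classes lie at the top, the Sst and Rarb classes near astrocytes, and fed replicate 2 gives the highest interneuron value (123 CPM).

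Hcrtr1, the receptor that prefers orexin A, was sparse: 89 UMIs in 67 of 4686 inhibitory nuclei. Its pooled level was 4.45 CPM in the interneuron class (11 UMIs) and 2.62 CPM or less in every other inhibitory class, and it was too low to be tested between classes. Its highest level was in the 64 excitatory nuclei, at 7.79 CPM (11 UMIs, exact 95% Poisson interval 3.89 to 13.9 CPM), in 10 of the 64.

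Ghsr, the ghrelin receptor, gave 1 UMI in the whole data set of 23839 barcodes and 145399453 UMIs, in an ungated inhibitory nucleus of fasted replicate 2. In inhibitory nuclei this is a share of 0.0213% (exact 95% interval 5.40e-04 to 0.119%). In the classes with 0 counts, the share of nuclei with a UMI that 3 counts would allow was 0.473% for Rarb, 0.728% for Dnah5, 1.13% for Prkcd, 1.19% for Calcrl, 1.46% for Sst, 1.41% for Dlk1, 3.03% for Tafa1/Il1rapl2, 5.45% for Vdr, 6.25% for Tac1 and 0.423% for glia. The matching limits on the level were 0.294 to 3.60 CPM in the 12 gated neuronal classes and 1.02 CPM in glia. These limits are for nuclei with a captured molecule, not for cells that use the gene, so Ghsr was not detectable at this depth, and nothing can be said of its distribution.

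Glia gave the level of each gene in cells of another type. Summed over 4686 inhibitory and 710 glial nuclei per library, 52.6% of 11976 genes were called, and 3 of the 6 members that passed the filter, all higher in inhibitory nuclei. Hcrtr2 was higher by 2.78 ± 0.40 (edgeR, adjusted p = 3.37e-05), at 17.2, 18.6, 18.2, 12.7 and 16.0 CPM against 0 to 6.01 CPM in glia. Npy5r was higher by 3.72 ± 0.86 (adjusted p = 0.00211), at 2.54 to 5.28 CPM against 1 UMI in all glia. Npy1r was higher by 1.23 ± 0.49 (adjusted p = 0.0486), called without fed replicate 2 but not without any of the other 4 libraries (adjusted p up to 0.181). For Npy2r (0.99 ± 0.42, adjusted p = 0.0619), Npy (0.78 ± 0.40, adjusted p = 0.115) and Lepr (0.71 ± 0.55, adjusted p = 0.297) no difference was shown. Among glia, Npy2r was found in astrocytes at 9.21 CPM (16 UMIs), and the 21 vascular nuclei had 6 Npy1r and 3 Lepr UMIs, or 64.6 CPM (exact 95% interval 23.7 to 141 CPM) and 32.3 CPM (6.67 to 94.5 CPM).

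The comparison of fasted with fed mice asked whether a fast of 20 to 21 h changed these genes. Over all inhibitory nuclei, 9 of the 10 members passed the filter and none was called by edgeR's quasi-likelihood test, where 1 of 13323 genes (0.00751%) was called. With that test 1 member had an unadjusted p under 0.05, and DESeq2 and the likelihood ratio test called none of the 9. DESeq2 gave no adjusted p for Mc4r and Hcrtr1, so it did not decide on them. The log2 fold changes (fasted against fed) were 0.44 ± 0.28 for Lepr, -0.15 ± 0.34 for Glp1r, 0.22 ± 0.33 for Mc4r, -0.26 ± 0.18 for Npy1r, 0.38 ± 0.22 for Npy2r, 0.20 ± 0.34 for Npy5r, 0.51 ± 0.41 for Hcrtr1 and -0.34 ± 0.15 for Hcrtr2. Hcrtr2 stood at 17.2, 18.6 and 18.2 CPM in the fed and at 12.7 and 16.0 CPM in the fasted libraries, and Npy1r at 9.04, 8.74 and 8.48 CPM and at 7.09 and 7.60 CPM. For both genes the fasted libraries lay below all fed ones, with differences that missed the threshold (unadjusted p = 0.0572 and 0.178). Npy2r stood at 6.95, 11.2 and 10.4 CPM and at 12.1 and 13.4 CPM, with the fasted libraries above all fed ones (unadjusted p = 0.115). With the preparation batch as a block (fed and fasted replicates of the same number were assumed to be prepared together), 3.23% of genes were called, and of the members only Npy.

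Npy stood at 2.64, 7.33 and 4.75 CPM in the inhibitory nuclei of the fed and at 19.6 and 8.70 CPM in those of the fasted libraries. Both fasted values were above the fed ones, fasted replicate 2 only narrowly. Without a batch term the log2 fold change was 1.41 ± 0.43 (unadjusted p = 0.0101, adjusted p = 0.626), and with the block it was 1.15 ± 0.21 (adjusted p = 5.99e-06). The block leaves 1 residual degree of freedom, and fed replicate 3, the only library of its number, adds nothing to that fold change. The p-value of the fit with the block therefore rests almost wholly on a spread pooled over genes, not on that of Npy between libraries. Over the alternatives the adjusted p ran from 5.99e-06 to 1.00, with 0.0341 when no filter on low counts was used, and the fold change was 0.71 ± 0.39 without fasted replicate 1 (adjusted p = 0.885). Without the nuclei of 5 or more Npy UMIs it was 1.57 ± 0.46 (adjusted p = 0.562). The Npy level of glia and of failed barcodes and the mitochondrial share of nuclei were also higher in both fasted than in all fed libraries. Their part in the result was not tested.

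**Figure D5:**
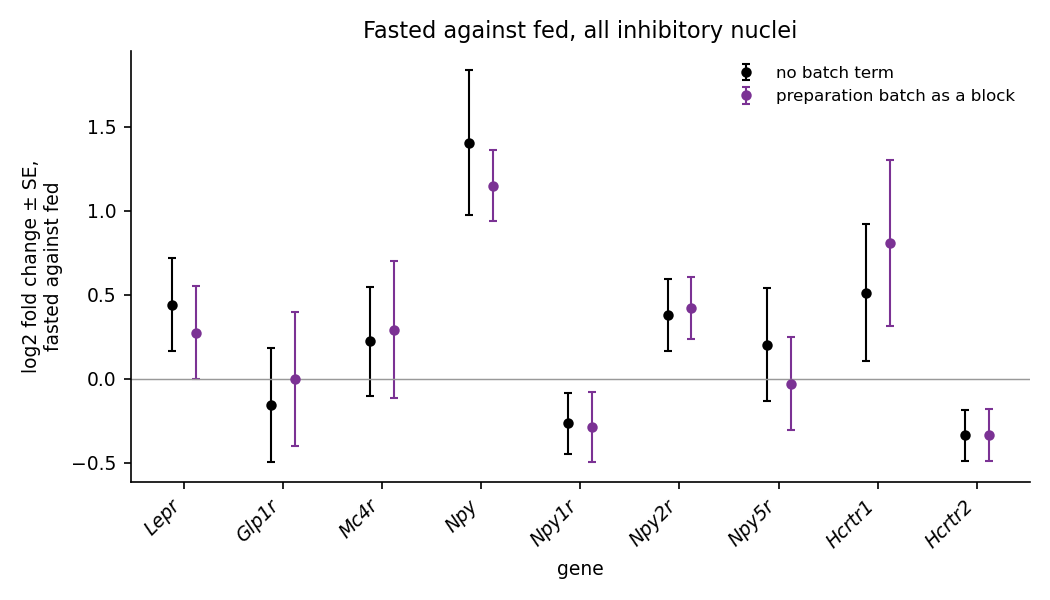
Log2 fold change of fasted against fed libraries (vertical axis, points with SE as bars) over all inhibitory nuclei for the 9 genes that passed the filter (horizontal axis). Black marks the fit without a batch term, and purple the fit with the replicate number, the assumed preparation batch, as a block. Npy has the largest value in both, 1.41 and 1.15, and the bars of Glp1r, Mc4r and Npy5r reach 0 in both fits.

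Within the gated classes, 0.0509% of 96204 tests across genes were called without a batch term and 0.859% with the block. The members passed the filter in 27 such tests and were called in none by edgeR's quasi-likelihood test and in none by DESeq2. DESeq2 gave no adjusted p for some of them, among these Hcrtr2 in the Dlk1 and Prkcd classes and Npy in ungated nuclei. The quasi-likelihood test gave an unadjusted p under 0.05 in 6 of the 27, and the likelihood ratio test, also without a batch term, called 3. These were Npy in the interneuron class (adjusted p = 0.00458) and Hcrtr2 in the Pde1c (0.00270) and Dlk1 (0.0111) classes. The share of all genes that the likelihood ratio test called in these classes is not given, so its 3 calls have no background here. The study used edgeR's likelihood ratio test on its own clusters. With the block, 5 were called. The p-values of these 5 also rest almost wholly on a spread pooled over genes, not on that of each gene between libraries. Npy in the interneuron class changed by 3.08 ± 0.68 without (adjusted p = 1.00) and 3.08 ± 0.39 with the block (adjusted p = 2.38e-11), a difference to which the nucleus with 52 UMIs in fasted replicate 1 contributed; without that library it was 1.61 ± 0.48 (adjusted p = 1.00), and without fasted replicate 2 it was 4.10 ± 0.48 (adjusted p = 0.0397). Npy in the Sst class changed by 0.66 ± 0.81 (adjusted p = 1.00), by -1.43 ± 0.67 without fasted replicate 1 (adjusted p = 0.965) and by 2.08 ± 0.49 without fasted replicate 2 (adjusted p = 0.0312). Npy in ungated nuclei changed by 1.43 ± 0.51 (adjusted p = 0.770) and 1.60 ± 0.45 (adjusted p = 0.0225). Npy in the Rarb class changed by -0.74 ± 0.91 (adjusted p = 0.999) and -1.55 ± 0.40 (adjusted p = 0.0181), by 2.41 ± 0.64 without fed replicate 2, and by 0.50 ± 0.71 (adjusted p = 1.00) without the nuclei of 5 or more Npy UMIs.

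Hcrtr2 had the other 2 calls with the block. In the Pde1c class it stood at 0, 21.8 and 25.0 CPM in the fed and at 0 and 2.36 CPM in the fasted libraries, a change of -3.30 ± 0.79 without (adjusted p = 0.458) and of -3.15 ± 0.84 with the block (adjusted p = 0.0327). Fed replicate 1 was at 0 like the lower fasted library, so the groups overlapped, and of the 57 UMIs of the class 3 were in the 101 nuclei that passed that gate alone. In the Dlk1 class it stood at 4.54, 22.1 and 13.9 CPM and at 0 and 1.61 CPM, a change of -3.35 ± 0.86 (adjusted p = 0.240) and -3.74 ± 0.89 (adjusted p = 0.00727). There the groups did not overlap, but 22 of the 23 UMIs of fed replicate 2 were in 1 nucleus. In the Dnah5 and Prkcd classes, with more Hcrtr2 UMIs, the changes were -0.09 ± 0.33 and -0.02 ± 0.46. In Vdr-gated nuclei the fed and fasted ranges given above overlapped for Npy1r, Mc4r and Npy5r. Both fasted libraries lay below the fed ones for Glp1r and above them for Lepr, on 1 and 12 fasted against 8, 3 and 25 fed UMIs for Glp1r, and on 2 and 12 against 2, 0 and 6 for Lepr. Only Npy1r had enough UMIs there for a test, which called no difference (edgeR, adjusted p = 0.997).

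Whether the effect of fasting differed between classes was tested with all class by feeding state terms together. Of 10647 genes 1 (0.00939%) was called, and none of the 4 members that passed the filter by edgeR's quasi-likelihood test, its likelihood ratio test or DESeq2. Hcrtr2 had the lowest unadjusted p of the 4, 0.0158, the only one under 0.05 (adjusted p = 1.00). The calls in single classes above are therefore not shown to be particular to those classes.

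A list of 46 further genes of these pathways was tested the same way: ligands and the enzymes that process them, other receptors, and accessory and signalling proteins. Over the 10 neuronal classes 58 of 220 tests were called, 34 higher and 24 lower, where 9.47 to 34.0% of all genes were called in each class. The 6 genes with the smallest adjusted p were Pam, Gnas, Gpr83, Pcsk2, Jak2 and Gnai1. Pam, the enzyme that amidates peptides such as NPY, was higher in the interneuron class (1.88 ± 0.10, edgeR, adjusted p = 2.46e-21) and lower in the Prkcd class (-2.44 ± 0.15, adjusted p = 2.41e-19). Gnas, the stimulatory G protein subunit used by Mc4r and Glp1r, was higher in the Sst class (1.47 ± 0.11, adjusted p = 8.94e-16), and Gnai1, an inhibitory subunit of the kind used by NPY receptors, was higher in the Pde1c class (0.99 ± 0.11, adjusted p = 1.03e-09). Gpr83, a receptor for a peptide of the proSAAS precursor, was higher in the Prkcd class (1.81 ± 0.14, adjusted p = 2.47e-15) and lower in the Sst class (-1.30 ± 0.25, adjusted p = 1.32e-04). Pcsk2, a convertase of peptide precursors, was higher in the Rarb class (0.95 ± 0.11, adjusted p = 5.50e-10), and Jak2, the kinase bound by the leptin receptor, was lower in the interneuron class (-0.94 ± 0.14, adjusted p = 4.11e-07).

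By group, the ligand and processing genes that passed the filter (5 of 16) had 15 higher and 9 lower calls, the other receptors (6 of 17) 5 and 4, and the accessory and signalling genes (11 of 13) 14 and 11. The median log2 fold change over the tests lay between 0.01 and 0.03 in each group, next to medians of -0.01 to 0.01 over all genes in each class. The UMIs listed under Agrp, 1 of the 5 ligand genes, cannot be tied to the AgRP peptide, because that gene model spans 70740 bases in GENCODE vM39 and overlaps Ripor1, Ctcf and others. Against glia 17 of 23 list genes were called, where 52.6% of all genes were, and 11 of the 17 were higher in inhibitory nuclei. In either direction, the calls were led by Cpe (-2.30 ± 0.11), Adipor2 (-2.45 ± 0.18), Pcsk2 (1.53 ± 0.12), Gnai2 (-1.34 ± 0.15), Gnas (1.07 ± 0.12) and Gpr83 (1.67 ± 0.19). Negative values mean higher in glia. Fasted against fed, none of 266 list tests was called by edgeR's quasi-likelihood test or DESeq2, 24 had an unadjusted p under 0.05, the likelihood ratio test called 1 and the block 6. Among those 6 were Pcsk2 (0.40 ± 0.09, adjusted p = 0.00134) and Gpr83 (0.40 ± 0.10, adjusted p = 0.00356) over all inhibitory nuclei. There the block called 2 of 28 list genes and 3.23% of all genes, and in the gated classes it called 0.859% of all tests. These p-values, too, rest almost wholly on a spread pooled over genes. The share of all genes called by the likelihood ratio test is not set beside its 1 call.

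In fed replicate 3, 358 of 1091 inhibitory nuclei had at least 1 UMI of mCherry, the reporter that the virus switches on in Htr2a-Cre neurons. Whether each of these nuclei came from such a neuron was not tested. Hcrtr2 stood at 25.9 CPM (exact 95% Poisson interval 22.1 to 30.1 CPM, counting error only) with and at 13.9 CPM (11.8 to 16.2 CPM) without mCherry, and at 26.6 CPM in the 209 nuclei with 3 or more mCherry UMIs. Npy stood at 7.68 CPM (5.68 to 10.2 CPM) against 3.10 CPM (2.16 to 4.30 CPM), but at 3.80 CPM with 3 or more mCherry UMIs. The Npy difference rested largely on 1 nucleus. With mCherry 49 Npy UMIs lay in 13 nuclei, and without it 35 lay in 24. The nucleus of the Sst class with 29 Npy UMIs can therefore only be among the former. The shares of nuclei with a Npy UMI were alike (3.63 and 3.27%). The intervals of the other members overlapped. This is 1 library with no test, and nuclei with mCherry were deeper (median 16135 against 14482 UMIs). Of the 13 Vdr-gated nuclei in this library 8 had mCherry, as did 20 of 40 in the Sst and 19 of 89 in the Foxp2 class. The share was 27.4% in the Prkcd, 29.8% in the Calcrl and 30.3% in the Rarb class. Ghsr had no UMI in the 358 nuclei with mCherry, with 0.838% of nuclei as the limit.

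Genes with a like pattern were found from 60 class by library sums (12 gated classes, 11611 genes, log2(CPM + 10)), which share libraries and depths, so the correlations are descriptions. The classes were set by gate genes, Vdr among them, so a gene high in the Vdr class correlates with Vdr by construction. Vdr itself stood among the nearest genes of Glp1r (Pearson r = 0.86), Npy1r (0.85) and Npy5r (0.76). Rasa4 followed for Glp1r (0.84) and Npy1r (0.75), Npy1r and Glp1r were near each other (0.77), and Npsr1, the neuropeptide S receptor gene, was nearest to Npy5r (0.77), followed by Vdr and Npy1r (0.69). Lepr was nearest to Col15a1 (0.71), Vcan (0.65) and Arhgef33 (0.63). Npy was nearest to Crhbp (0.81), Sox6 (0.80) and Moxd1 (0.79); Sox6 encodes a transcription factor of somatostatin interneurons among other cells. For Npy2r (Dnhd1 0.58, Cntnap5b 0.56, Tom1 0.54) and Hcrtr2 (Fam13b 0.59, Oxr1 0.57, Mast1 0.54) no gene came close. Ghsr, Mc4r and Hcrtr1 had under 100 UMIs in these classes and were left out.

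The other members lie apart in the genome (GRCm39, GENCODE vM39 gene models). Ghsr is on chromosome 3 from 27425356 to 27433382 (plus strand) and Npy2r on the same chromosome from 82444312 to 82455409 (minus strand). Lepr is on chromosome 4 from 101574601 to 101676237 (plus strand) and Hcrtr1 there from 130024004 to 130033557 (minus strand). Npy is on chromosome 6 from 49799026 to 49806489 (plus strand), and Hcrtr2 on chromosome 9 from 76132272 to 76231138 (minus strand). Lepr (102 kb) and Hcrtr2 (98.9 kb) are long genes, while the Mc4r model covers 2.80 kb, and intronic reads were counted. Glp1r and Hcrtr2 overlap long noncoding RNA genes on the other strand.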

How the data were processed

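Nuclei of the mouse central amygdala were profiled by droplet single-nucleus RNA sequencing in 5 libraries (3 fed, 2 fasted). The deposited matrices hold raw UMI counts per gene and barcode, which the authors made with Cell Ranger (5.0.0 in the file headers; the submitters' processing notes name 2.1.1 and mm10) against GRCm39 with Cre and mCherry sequences added, intronic reads included; 22532 genes are listed. Here nuclei with 500 to 8000 genes and under 0.8% mitochondrial UMIs (13 genes) were kept. Doublets were called with Scrublet (scanpy 1.11.5; 72 nuclei, 1.01%) and kept, with removal as an alternative.

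Classes were gated on raw UMIs: Gad1 plus Gad2 at least 2 for inhibitory nuclei, then in order Nkx2-1 at least 1 or Lhx6 at least 3, Pde1c 10, Foxp2 8, Rarb 8, Vdr 2, Dlk1 2, Dnah5 3, Tac1 2, Sst 2, Calcrl 2, Prkcd 3, and Tafa1 and Il1rapl2 5 each; glial gates took 2 or 3 UMIs of 3 or 4 marker genes, and excitatory nuclei 2 of Slc17a7 and Slc17a6. Counts summed per class and library were tested in edgeR 4.0.16 (R 4.3.3, quasi-likelihood, TMM, low-count filter, Benjamini-Hochberg adjustment over all genes of a contrast, threshold 0.05), with the library as a block between classes and no covariate for fasted against fed; standard errors are the log2 fold change divided by the root of F. DESeq2 1.42.0, the likelihood ratio test, upper quartile scaling, no filter, other gates and leaving out each library were alternatives. The study's supplement names preparation batches shared by numbered fed and fasted datasets, with 1 fed dataset alone. That these are the replicate numbers used here, and that the lone dataset is fed replicate 3, was assumed. Deviations of same-numbered fed and fasted libraries correlated at r = 0.337 and 0.520 over 13323 genes. With 2 fasted libraries their deviations are opposite, so the unlike pairs gave -0.337 and -0.520 by construction. Same-numbered libraries were also alike in median depth of inhibitory nuclei (9419 and 7420, then 18427 and 18286 UMIs), whose part was not tested.

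Intervals are exact 95% ones (scipy 1.17.1) and zero-count limits are 3 counts; both cover counting error only. Median depth was 6608 to 16367 UMIs per nucleus. The test steps were tested on simulated counts. The 10 members were named in full; of the pathway list, the 6 genes with the smallest adjusted p were named. The members and lists were chosen with earlier results of these data known. Promoters are RefSeq, GRCm38.p6.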

Additional observations from a re-analysis of the deposited data

Results flagged for a closer look

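The 64 excitatory nuclei entered no test, and 5 of the genes were found there above the zero-count limit: Lepr at 9.91 CPM, Npy1r at 12.7 CPM, Npy2r at 6.37 CPM, Hcrtr1 at 7.79 CPM and Hcrtr2 at 24.1 CPM, pooled over the libraries. For Hcrtr2 the libraries held 0, 0 and 107 CPM (fed) and 33.4 and 17.1 CPM (fasted), and for Hcrtr1 0, 3.82 and 5.11 CPM (fed) and 13.3 and 12.8 CPM (fasted). The barcodes that failed the filter on genes and mitochondrial share entered no test either, and Npy stood there at 30.9 CPM, above its level in the kept nuclei.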

How the results depend on the processing

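Among the 30 single tests of members followed through the alternatives were the Glp1r, Npy5r and Lepr differences between classes given above as descriptions. Those genes passed the filter only with classes in which they are high. Tests over all inhibitory nuclei and against glia do not use the neuronal gates. There, doubled gates and exactly 1 gate repeated the main fit by construction. Of all 360 values, these repeats included, 335 kept their direction and their side of the threshold, 19 lost the call, 2 gained a call and 4 turned direction. The turned ones were, over all inhibitory nuclei and fasted against fed, Glp1r (0.066 without fasted replicate 1; -0.60 to 0.066 over the libraries left out) and Npy5r (-0.029 with the replicate block, -0.06 without fed replicate 3 and -0.27 without fasted replicate 2; -0.27 to 0.46 over the libraries left out), none of them called. The 12 member calls between classes became 6 with the gates doubled (6 classes tested) and 5 with exactly 1 gate passed (7 classes tested). They ranged from 7 (without fed replicate 2) to 12 when 1 library was left out. The 13 classes gave 13 to 17 calls, but with all libraries 7 members were tested per class there, in place of 4. Glp1r, Npy5r and Lepr, which passed the filter only there, are among these calls. With all libraries 6.72 to 33.4% of all genes were called in each of the 13 classes. The 3 calls against glia ranged from 2 to 3. For fasted against fed in all inhibitory nuclei the 0 member calls became 1 without the low-count filter and 1 with the replicate block, and stayed at 0 when any library was left out; the genes called went from 1 to 125 without the filter, 77 with DESeq2, 138 with the likelihood ratio test and 430 with the block, and ranged from 0 (without fed replicate 3) to 23 (without fed replicate 1). In the gated classes the 0 member calls became 3 without the filter, 3 with the likelihood ratio test and 5 with the block, and ranged from 0 to 2 (without fasted replicate 2); the interaction went from 0 to 2 without the filter. The block changed no member call beyond Npy in all inhibitory, interneuron, Rarb and ungated nuclei and Hcrtr2 in the Pde1c and Dlk1 classes. For the gated classes, the share of all genes called is given above only for the quasi-likelihood test without and with the block. Of 130 levels, 16 moved by more than their spread with doubled gates and 6 with exactly 1 gate; of 130 shares, 90 moved after thinning. Causes of these changes were not tested. Depth limits Mc4r and Hcrtr1, which could not be tested between classes, and Ghsr.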
